A study of Gallus gallus with 8 samples.

Results

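The genes described here are the Wnt ligands, their receptors and the proteins that carry the signal inside the cell, as they were expressed in chick growth plate cartilage. They were chosen by symbol in the array's annotation: symbols beginning with WNT, FZD, RSPO, AXIN, DVL or TCF7, together with LEF1, CTNNB1, APC, ROR1, ROR2, RYK, GSK3B, VANGL1, VANGL2, PRICKLE1 and PRICKLE2. This found 47 genes of 13009 named on the array, carried by 95 probe sets, and where a gene had several, the brightest on average stands for it. No probe set names GSK3B by itself, so GSK3B was not analysed here. TCF7 and DVL3 are not among the 47 genes either.

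Wnt proteins are secreted lipid-modified ligands that bind Frizzled receptors. In the canonical branch, Dishevelled (DVL) disables a destruction complex built on Axin and APC, so that beta-catenin (CTNNB1) accumulates and acts in the nucleus through TCF and LEF factors. In the planar cell polarity branch, Frizzled, Vangl and Prickle proteins orient cells without beta-catenin, with ROR and RYK as co-receptors. In growth plate cartilage of chick and mouse, canonical signalling is known to promote chondrocyte hypertrophy, while WNT5A, WNT5B and the polarity genes are known for their part in the pace of differentiation and in the stacking of chondrocytes into columns.

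RNA of pooled, isolated chondrocytes from the tibiotarsus, a long bone of the chick leg, was measured on Affymetrix arrays. There were 4 arrays of hypertrophic cells, the enlarged cells that mineralise their matrix, from 1-day-old chicks, and 4 arrays of proliferative cells, which divide in columns, from 3-week-old chicks. No strain, genotype or treatment beyond isolation is named for either group. Stage and age differ together and cannot be told apart.

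All 8 chondrocyte markers, among them COL2A1 and SOX9, were above background in both groups. All 8 had negative differences, of which 1, MATN3, passed, and the log2 of their summed level was 16.68 to 16.97 on hypertrophic and 17.07 to 17.17 on proliferative arrays. Of 9 hypertrophic markers 3 were higher in hypertrophic cells and 6 did not pass, and of 5 measured markers of dividing cells 3 were lower. Within each group, arrays 3 and 4 were close to copies: over 5344 bright probe sets their difference had an SD of 0.19 in hypertrophic and 0.18 in proliferative cells, while other array pairs of the same group had 0.37 to 0.96. The labels do not say whether arrays of a group came from separate birds or pools, so the p-values cover the spread between these arrays, which may be technical. For this reason calls of Wnt genes that passed are given over the 8 arrays and again with arrays 3 and 4 averaged. There the mean of arrays 3 and 4 was taken as a single array. Marker calls are over the 8 arrays unless stated. With arrays 3 and 4 averaged, 0 chondrocyte markers passed, 2 hypertrophic markers were higher and 2 markers of dividing cells were lower. Over all 13009 genes 7.34% were higher and 5.60% lower over the 8 arrays, and 2.01% and 1.24% with the averaging.

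Values are log2 RMA levels. A difference is the hypertrophic mean less the proliferative mean, in log2 units, with the standard error from the limma fit (n = 4 arrays per group). Adjusted p-values are Benjamini-Hochberg values of that fit over 38439 probe sets, two-sided, and a gene passed below 0.05. A level of 4.75, set by viral and reporter probe sets, was taken as background. Both group means of 13 Wnt genes lay below it, and 34 Wnt genes were above it in at least 1 group.

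TCF7L2 and WNT5B were higher in hypertrophic cells and PRICKLE1 was lower, and these 3 genes passed in all 21 alternative settings tried. The settings reuse the same arrays, so they are not independent. Over the 8 arrays 3 of the 47 Wnt genes were higher (6.38%) and 5 were lower (10.6%), while 7.34% of all 13009 genes were higher and 5.60% lower. With arrays 3 and 4 averaged, 2 were higher and 1 was lower, where 2.01% of all genes were higher and 1.24% lower (3.24% either way). Centred on ribosomal proteins, which shifts every difference by -0.15, the arrays gave 2 higher and 12 lower. The shift applies to every gene on the array. The share of all genes that passed there was not counted, so these counts have no comparison. Groups did not overlap in 13 Wnt genes (27.7%), of which 5 were higher and 8 lower, against 20.3% of all genes (10.6% higher and 9.67% lower). The median difference was -0.09 over the 47 genes and -0.01 over all genes.

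In RSPO3, FZD7 and CTNNB1, among others, arrays 1 and 2 differed from arrays 3 and 4 in the same direction in both groups, although the labels name no such pair. In other genes the groups did not share this shift. Arrays 1 and 2 less arrays 3 and 4 gave 0.29 in hypertrophic and -1.80 in proliferative cells for VANGL1. In the same order it gave -0.12 and 1.28 for WNT9A, and 0.85 and -0.03 for FZD9. A block fits a single shift to both groups. With the pair as a block in limma, 5 Wnt genes were higher and 12 lower, where 10.9% of all genes were higher and 9.20% lower (20.1% either way). The block added 9 genes, AXIN1, AXIN2, CTNNB1, FZD7, FZD9, TCF7L1, VANGL1, WNT5A and WNT9A, each given with both adjusted p-values. In the block fit arrays 3 and 4 still count as separate arrays. With arrays 3 and 4 averaged in limma, none of these 9 genes passed on the probe set used (adjusted p from 0.124 to 0.483).

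**Figure D1:**
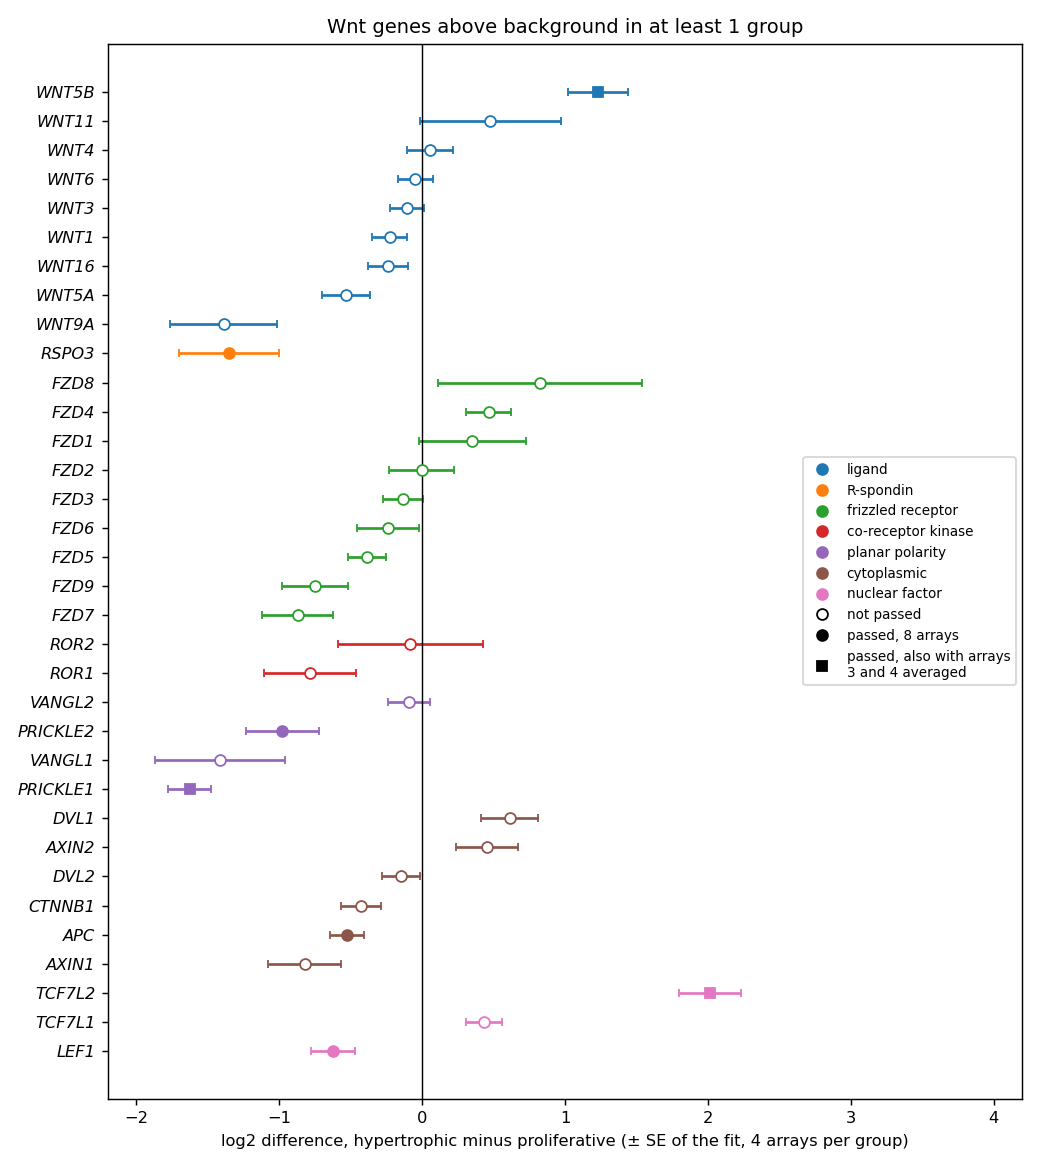
Log2 difference, hypertrophic minus proliferative, of the 34 Wnt genes above background in at least 1 group, ordered by role, with the SE of the fit (n = 4 arrays per group). Filled symbols passed over 8 arrays, and squares, which are TCF7L2, WNT5B and PRICKLE1, also passed with arrays 3 and 4 averaged.

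Among the 18 Wnt ligands, WNT5B was the gene that passed (5.56% higher, against 7.34% of all genes). WNT5B, a ligand known in mouse and chick cartilage for controlling the passage of chondrocytes between zones, had log2 levels of 9.47, 9.91, 9.65 and 9.76 on hypertrophic arrays 1 to 4, against 7.99, 8.21, 8.77 and 8.88 on proliferative arrays 1 to 4. Every hypertrophic array was above every proliferative array, and the proliferative arrays lay further apart. The log2 difference was 1.23 ± 0.21, or 2.35-fold (adjusted p = 0.00916, limma), with adjusted p = 0.0458 when arrays 3 and 4 were averaged. It was 1.58 on arrays 1 and 2 and 0.88 on arrays 3 and 4.

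WNT5A, the close relative of WNT5B and the main activator of the polarity branch in limb cartilage, differed in the other direction but did not pass. Log2 levels of WNT5A were 8.38, 8.61, 8.17 and 8.21 on hypertrophic arrays, against 9.24, 8.75, 8.97 and 8.54 on proliferative arrays. The groups overlapped in a narrow range, since hypertrophic array 2 exceeded proliferative array 4. The difference was -0.53 ± 0.17 (adjusted p = 0.0882, limma, and 0.0424 with the pair as a block), and all 4 WNT5A probe sets had negative differences, between -0.59 and -0.22, of which none passed without the block (adjusted p from 0.0563 to 0.66).

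WNT9A, known in mouse for keeping joint-forming cells from becoming cartilage, fell just short of the threshold. Its log2 levels were 4.48, 5.43, 4.97 and 5.18 on hypertrophic arrays, against 7.41, 6.69, 5.72 and 5.81 on proliferative arrays. The groups did not overlap, and hypertrophic array 1 lay below background. The difference was -1.39 ± 0.37 (adjusted p = 0.0533, limma, 0.124 with arrays 3 and 4 averaged and 0.0236 with the pair as a block), being -2.09 on arrays 1 and 2 and -0.69 on arrays 3 and 4. In the RefSeq gene table WNT9A lies next to WNT3A, with no protein-coding gene between them, and WNT3A, a canonical ligand, was below background in both groups (4.03 in hypertrophic and 4.11 in proliferative cells).

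WNT11, which in vertebrate embryos acts mostly through the polarity branch, split by array rather than by group. Log2 levels were 8.12, 7.72, 7.22 and 7.43 on hypertrophic arrays 1 to 4, against 6.76, 5.73, 8.09 and 7.99 on proliferative arrays 1 to 4. On arrays 1 and 2 hypertrophic cells were higher by 1.68, and on arrays 3 and 4 they were lower, with a difference of -0.72. Over the 8 arrays the difference was 0.48 ± 0.49 (adjusted p = 0.659, limma). The 2 other WNT11 probe sets, above background in at least 1 group, had differences of the opposite sign, down to -0.37. Neither passed.

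Of the other ligands above background, WNT4, which promotes chondrocyte maturation when overexpressed in chick limbs, averaged 7.66 ± 0.26 on hypertrophic and 7.60 ± 0.22 on proliferative arrays (SD, n = 4 each). WNT6 had 6.71 ± 0.12 and 6.76 ± 0.19 in the same order, and WNT16 had 5.65 ± 0.20 and 5.89 ± 0.18. None of them passed, with differences of 0.05 ± 0.16, -0.05 ± 0.12 and -0.24 ± 0.14. WNT1 and WNT3 reached background in proliferative cells alone, at 4.94 and 4.78, against 4.71 and 4.67 in hypertrophic cells, and did not pass. The remaining 9 ligands, WNT2, WNT2B, WNT3A, WNT7A, WNT7B, WNT8A, WNT8B, WNT10A and WNT11B, had both means below background, so their levels in these cells were not measured. WNT10A is the RefSeq neighbour of WNT6, which was above background.

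R-spondins are secreted proteins that strengthen Wnt signalling by removing ligases that degrade Frizzled receptors. RSPO3 was lower in hypertrophic cells, with log2 levels of 8.02, 7.75, 7.02 and 7.09 on hypertrophic arrays 1 to 4, against 9.58, 9.18, 8.32 and 8.21 on proliferative arrays 1 to 4. The groups did not overlap, and arrays 1 and 2 were higher than arrays 3 and 4 in both groups. RSPO3 fell by 1.35 ± 0.35, or 2.55-fold (adjusted p = 0.0450, limma), with differences of -1.49 on arrays 1 and 2 and -1.21 on arrays 3 and 4. It did not pass with arrays 3 and 4 averaged (adjusted p = 0.132), and of the 8 fits that left out an array it passed only in the 1 without hypertrophic array 1 (adjusted p elsewhere up to 0.115). A second RSPO3 probe set gave -0.77 ± 0.34 and did not pass (adjusted p = 0.225).

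RSPO2, which is required for limb growth in mouse, passed in the other direction (adjusted p = 0.0391, limma, and 0.163 with arrays 3 and 4 averaged), but both its means lay below background. It had 4.45, 4.36, 4.62 and 4.99 on hypertrophic arrays, against 3.96, 4.12, 3.96 and 4.07 on proliferative arrays, so that only hypertrophic array 4 exceeded the background level. No fold is given for it, and RSPO2 passed in 2 of the 8 fits that left out an array, those without hypertrophic array 1 or 2. RSPO1 was below background in both groups.

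**Figure D2:**
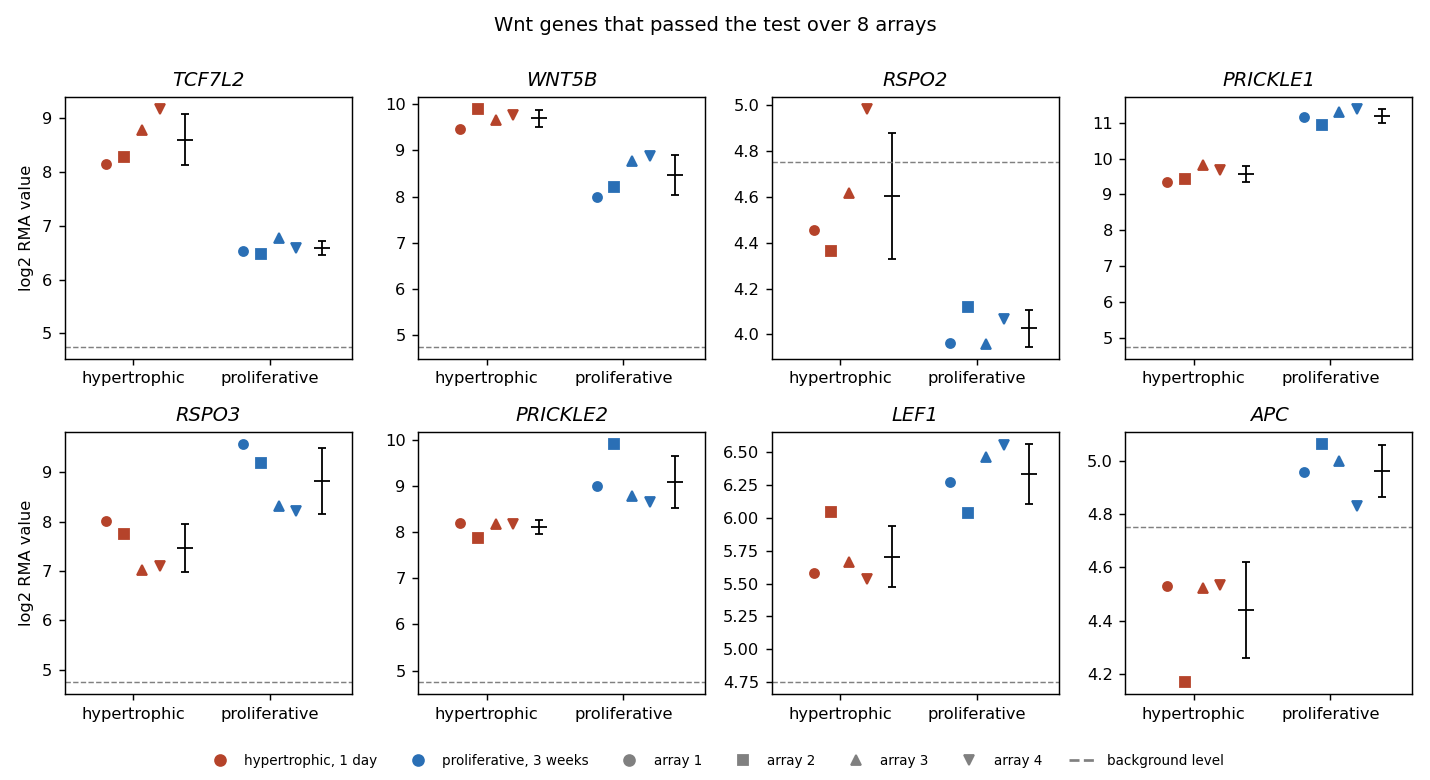
Log2 RMA values of the 8 Wnt genes that passed over 8 arrays, by array (symbol shape), with hypertrophic cells on the left and proliferative cells on the right; bars are mean ± SD (n = 4 each), the dashed line is the background level, and the vertical scales differ and do not start at 0. TCF7L2 and PRICKLE1 show wide gaps between groups. The gap of WNT5B is narrower, from 8.88 on the highest proliferative to 9.47 on the lowest hypertrophic array. LEF1 overlaps at array 2, and RSPO2 lies mostly below background.

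None of the 10 Frizzled receptors passed in limma over the 8 arrays, and 4 had an unadjusted p under 0.05, as did 29.9% of all genes. All but FZD10 were above background. FZD7, a receptor known mostly for canonical signalling, came closest, with log2 levels of 6.05, 5.79, 5.16 and 5.29 on hypertrophic arrays, against 6.94, 6.59, 6.06 and 6.19 on proliferative arrays. The hypertrophic values lay below all proliferative values by a small margin, with a difference of -0.87 ± 0.25 (adjusted p = 0.0655, limma). It was -0.84 on arrays 1 and 2 and -0.90 on arrays 3 and 4, and FZD7 passed with the pair as a block (adjusted p = 0.00245). A dimmer FZD7 probe set passed, at -0.42 ± 0.11 (adjusted p = 0.0465), though not with arrays 3 and 4 averaged (adjusted p = 0.193).

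FZD9 had a difference of -0.75 ± 0.23 (adjusted p = 0.0813, limma, and 0.0312 with the pair as a block). Its log2 levels were 10.07, 10.45, 9.35 and 9.47 on hypertrophic arrays, against 10.69, 10.47, 10.67 and 10.54 on proliferative arrays. The groups did not overlap, but hypertrophic array 2 was within 0.02 of the lowest proliferative array. FZD4, best known from blood vessels, had non-overlapping groups in the other direction (6.51, 5.97, 5.997 and 5.97 on hypertrophic arrays, against 5.43, 5.91, 5.63 and 5.62 on proliferative arrays). Its difference was 0.47 ± 0.16 (adjusted p = 0.111, limma), hypertrophic array 1 stood apart from the other 3, and a second FZD4 probe set differed by -0.02 ± 0.14.

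FZD1 was bright in both groups, averaging 11.27 ± 0.60 on hypertrophic and 10.92 ± 0.66 on proliferative arrays (SD, n = 4 each), and differed by 0.35 ± 0.37. A second, dimmer FZD1 probe set differed by -0.12 ± 0.10. On it arrays 1 and 2 exceeded arrays 3 and 4 by only 0.10 in hypertrophic and 0.02 in proliferative cells. FZD2, FZD3, FZD5 and FZD6 had differences of -0.005 ± 0.23, -0.13 ± 0.14, -0.39 ± 0.13 and -0.24 ± 0.21 that did not pass. The sign changed between pairs for FZD2, at 0.44 on arrays 1 and 2 and -0.45 on arrays 3 and 4. It also changed for FZD6 on the probe set used, at -0.67 and 0.19 in the same order. A second FZD6 probe set had -0.04 and -1.40, with no change of sign, and the dimmest had -1.53 and 0.18. All 3 FZD6 probe sets had negative differences over the 8 arrays, from -0.72 to -0.24, and none passed. FZD8 was the most variable receptor: it read 5.36, 7.35, 7.42 and 7.85 on hypertrophic arrays 1 to 4, against 7.61, 6.91, 5.52 and 4.64 on proliferative arrays 1 to 4. Its difference was -0.91 on arrays 1 and 2 and 2.55 on arrays 3 and 4, so no direction can be given.

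The co-receptors did not pass either, and 2 of the 3 had an unadjusted p under 0.05 in limma: ROR1, and RYK, which was below background. So did 29.9% of all genes. ROR1, a kinase-like receptor for WNT5A, had log2 levels of 6.38, 6.88, 7.81 and 7.86 on hypertrophic arrays, against 8.22, 7.78, 8.24 and 7.83 on proliferative arrays. Hypertrophic arrays 1 and 2 were low while arrays 3 and 4 fell within the proliferative range, and the difference was -0.79 ± 0.32 (adjusted p = 0.191). ROR2, whose loss shortens limbs in mouse, had a difference of -0.08 ± 0.51 with arrays from 4.37 to 6.43 in hypertrophic and 4.62 to 6.29 in proliferative cells. The ROR2 difference was -0.40 on arrays 1 and 2 and 0.24 on arrays 3 and 4. RYK, another Wnt-binding receptor of that kind, averaged 4.41 in hypertrophic and 4.08 in proliferative cells, both below background.

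Of the 4 planar polarity genes 2 were lower in hypertrophic cells and 2 did not pass, where 5.60% of all genes were lower. With arrays 3 and 4 averaged, 1 of the 4 was lower, against 1.24% of all genes. All 4 differences were negative, as were 33 of those of the 47 Wnt genes, and that of VANGL2 was smaller than its SE. PRICKLE1, a cytoplasmic LIM-domain protein whose Drosophila counterpart gathers at the cell edge opposite Frizzled, had log2 levels of 9.33, 9.43, 9.83 and 9.68 on hypertrophic arrays, against 11.15, 10.93, 11.31 and 11.39 on proliferative arrays. The groups were more than 1 log2 unit apart at their nearest arrays. PRICKLE1 fell by 1.63 ± 0.15, or 3.09-fold (adjusted p = 6.89e-04, limma, and 0.0116 with arrays 3 and 4 averaged), with differences of -1.66 on arrays 1 and 2 and -1.59 on arrays 3 and 4. It is measured by 1 probe set.

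PRICKLE2, its paralogue, had log2 levels of 8.21, 7.88, 8.19 and 8.18 on hypertrophic arrays, against 8.99, 9.91, 8.79 and 8.67 on proliferative arrays. The groups did not overlap, proliferative array 2 was the highest, and hypertrophic array 2 stood below the other 3 hypertrophic arrays. PRICKLE2 fell by 0.98 ± 0.25 (adjusted p = 0.0458, limma), and the dimmer of its probe sets by 0.94 ± 0.21 (adjusted p = 0.0262). Neither probe set passed with arrays 3 and 4 averaged (adjusted p = 0.13 and 0.0940), and among the 8 fits that left out an array the brighter passed only without proliferative array 2 (adjusted p elsewhere up to 0.117).

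VANGL1, a membrane protein that binds Prickle, read 6.004, 5.36, 5.28 and 5.50 on hypertrophic arrays, against 6.16, 5.94, 7.93 and 7.77 on proliferative arrays. The high values were proliferative arrays 3 and 4, while arrays 1 and 2 of the groups were close, so the difference was -0.37 on arrays 1 and 2 and -2.46 on arrays 3 and 4. Over the 8 arrays it was -1.42 ± 0.45 (adjusted p = 0.0938, limma, 0.360 with arrays 3 and 4 averaged and 0.0424 with the pair as a block). VANGL2, which in mouse is needed for limb elongation, averaged 6.32 ± 0.09 on hypertrophic and 6.42 ± 0.29 on proliferative arrays (SD, n = 4 each), a difference of -0.10 ± 0.15.

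**Figure D3:**
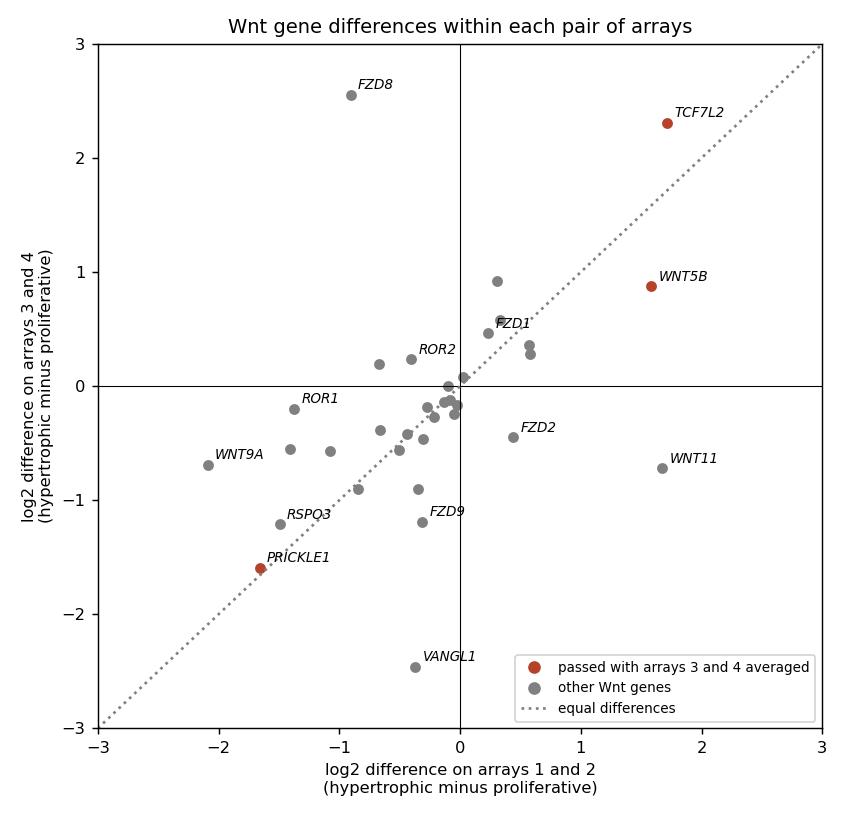
Log2 difference, hypertrophic minus proliferative, of the 34 Wnt genes above background in at least 1 group, on arrays 1 and 2 (horizontal) and on arrays 3 and 4 (vertical); the dotted line marks equal differences. PRICKLE1 lies on the line and TCF7L2 and WNT5B near it, while VANGL1 differs on arrays 3 and 4. Genes with opposite signs include FZD8, WNT11, FZD2, FZD6 and ROR2.

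Of the 6 cytoplasmic components 1 fell and 5 did not pass, where 5.60% of all genes fell. With arrays 3 and 4 averaged, none of the 6 passed. CTNNB1, beta-catenin itself, was abundant on every array, with log2 levels of 12.77, 12.63, 13.07 and 12.99 on hypertrophic arrays, against 13.14, 13.13, 13.53 and 13.36 on proliferative arrays. Its groups did not overlap, but the gap was small, and arrays 3 and 4 were higher than arrays 1 and 2 in both groups. The difference was -0.43 ± 0.14 (adjusted p = 0.0989, limma, and 0.0189 with the pair as a block), with -0.44 on arrays 1 and 2 and -0.42 on arrays 3 and 4.

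AXIN1, the scaffold of the destruction complex, had log2 levels of 6.80, 7.40, 7.87 and 7.97 on hypertrophic arrays, against 7.95, 8.40, 8.55 and 8.43 on proliferative arrays. Only hypertrophic array 4 reached into the proliferative range, and the difference was -0.82 ± 0.26 (adjusted p = 0.0860, limma, and 0.0168 with the pair as a block). All 6 AXIN1 probe sets had negative differences, from -0.82 to -0.24, and none passed over the 8 arrays without the block. APC, the other scaffold, passed (adjusted p = 0.0274, limma), with 4.53, 4.17, 4.52 and 4.54 on hypertrophic arrays, all below background, against 4.96, 5.06, 5.001 and 4.83 on proliferative arrays. APC was therefore at least 1.16-fold lower, from the group means with each hypertrophic array set to at least the background level. It did not pass with arrays 3 and 4 averaged (adjusted p = 0.114), it passed only without hypertrophic array 1 when an array was left out, hypertrophic array 2 stood below the others, and its 3 other probe sets were below background in both groups.

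AXIN2, a negative regulator that canonical signalling itself induces and which is widely read as its reporter, differed between its probe sets. The brighter probe set had log2 levels of 5.71, 5.63, 5.22 and 5.21 on hypertrophic arrays, against 5.36, 5.32, 4.65 and 4.62 on proliferative arrays, and with 0.45 ± 0.21 it did not pass (adjusted p = 0.256, limma, and 0.0166 with the pair as a block). The dimmer one had 5.68, 5.91, 5.45 and 6.01 on hypertrophic arrays, against 4.28, 5.02, 4.44 and 4.15 on proliferative arrays, with no overlap. It passed over the 8 arrays (estimate 1.29 ± 0.20, adjusted p = 0.00718) and with arrays 3 and 4 averaged (adjusted p = 0.0465), and since its proliferative mean lay below background it was at least 1.92-fold higher. Both probe sets were higher in hypertrophic cells within arrays 1 and 2 and within arrays 3 and 4.

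DVL1, which relays the signal from Frizzled, averaged 7.42 ± 0.22 on hypertrophic and 6.81 ± 0.38 on proliferative arrays (SD, n = 4 each), and its difference of 0.61 ± 0.20 did not pass (adjusted p = 0.0961, limma). DVL2 differed by -0.15 ± 0.13.

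Among the 3 nuclear factors 1 rose, 1 fell and 1 did not pass, where 7.34% of all genes rose and 5.60% fell. With arrays 3 and 4 averaged, 1 rose and 0 fell, against 2.01% and 1.24% of all genes. TCF7L2, a DNA-binding partner of beta-catenin, had the largest difference of the 47 genes. Its log2 levels were 8.15, 8.28, 8.79 and 9.18 on hypertrophic arrays, against 6.53, 6.47, 6.77 and 6.58 on proliferative arrays. The lowest hypertrophic array was more than 1 log2 unit above the highest proliferative array. TCF7L2 rose by 2.01 ± 0.22, or 4.03-fold (adjusted p = 0.00133, limma, and 0.0171 with arrays 3 and 4 averaged), with 1.71 on arrays 1 and 2 and 2.31 on arrays 3 and 4.

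TCF7L2 has 5 probe sets, which differed in size of change. The second brightest passed as well, with 6.52, 8.02, 7.88 and 8.52 on hypertrophic arrays, against 4.84, 5.44, 6.11 and 5.55 on proliferative arrays (2.25 ± 0.42, adjusted p = 0.0133, limma, and 0.0754 with arrays 3 and 4 averaged). Another pair did not pass, with estimates of 1.61 ± 0.48 and 0.99 ± 0.35 (adjusted p = 0.0733 and 0.122), and in these hypertrophic array 1 was the lowest hypertrophic array, at 4.87 and 5.30. The fifth, close to background, differed by 0.02 ± 0.14. TCF7L2 is known to be spliced in several forms, and the files do not say which exons each probe set covers.

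**Figure D4:**
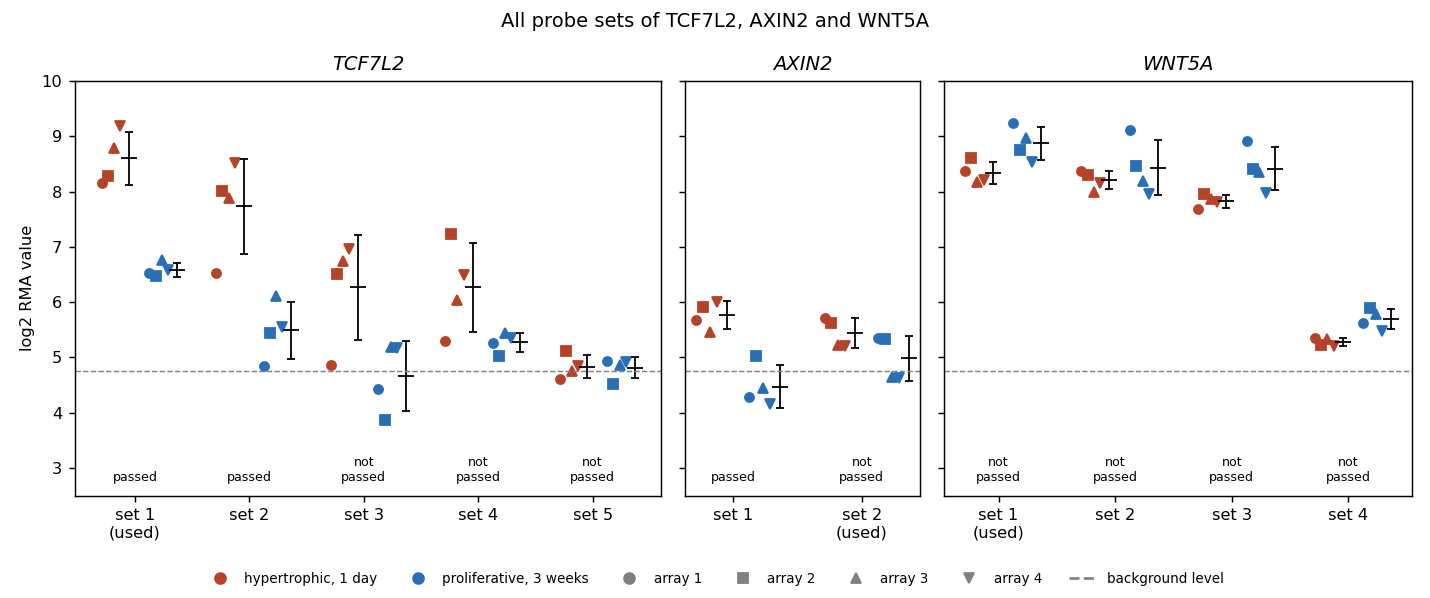
Log2 RMA values by array for all 5 probe sets of TCF7L2, both of AXIN2 and all 4 of WNT5A, each with hypertrophic cells left of proliferative cells, mean ± SD (n = 4 each) and the result of the test over 8 arrays; the dashed line is the background level and the vertical axis starts at 2.5. For TCF7L2 2 sets passed, for AXIN2 1 passed, and for WNT5A none did.

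LEF1, a related factor known in bone-forming cells, was lower in hypertrophic cells, opposite to TCF7L2. It had 5.58, 6.04, 5.67 and 5.54 on hypertrophic arrays, against 6.27, 6.04, 6.46 and 6.55 on proliferative arrays, and the groups met at array 2 of each. LEF1 fell by 0.63 ± 0.16 (adjusted p = 0.0402, limma), but did not pass with arrays 3 and 4 averaged (adjusted p = 0.225) and passed in 2 of the 8 fits that left out an array, those without array 2 of either group (adjusted p elsewhere up to 0.118). A dimmer LEF1 probe set passed in the same direction with both means below background (adjusted p = 0.0263). TCF7L1, which acts mostly as a repressor in vertebrates, had 5.73, 5.61, 5.40 and 5.33 on hypertrophic arrays, against 4.94, 5.24, 5.15 and 5.01 on proliferative arrays. Its groups did not overlap, but the difference of 0.43 ± 0.12 did not pass (adjusted p = 0.0690, limma, and 0.0424 with the pair as a block).

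Several of these patterns moved with the array pairs. Of the 34 Wnt genes above background, 8 had arrays 1 and 2 more than 1 log2 unit away from arrays 3 and 4 in at least 1 group (23.5%, against 13.7% of all 9905 genes above background): FZD1, FZD8, ROR1, ROR2, RSPO3, VANGL1, WNT9A and WNT11. The signal of actin's 3′ probe set over its 5′ probe set, a sign of RNA integrity, also differed between the pairs, at log2 values of 1.58 and 1.35 on hypertrophic arrays 1 and 2 and 0.86 and 1.06 on hypertrophic arrays 3 and 4, against 1.90 and 1.80 on proliferative arrays 1 and 2 and 0.97 and 0.86 on proliferative arrays 3 and 4. For the control EF1A this measure was 0.41, 0.38, 0.18 and 0.24 on hypertrophic arrays 1 to 4. On proliferative arrays 1 to 4 it was 0.32, 0.40, 0.19 and 0.23. For GAPDH it was -0.06, -0.37, -0.44 and -0.45 on hypertrophic arrays 1 to 4. The proliferative arrays, at -0.53, -0.34, -0.47 and -0.49, did not split by pair for GAPDH. Between the groups the ranges of each control overlapped. The part of RNA quality in the pair differences was not tested.

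Markers of some other cell types moved with the groups too. Of 8 endothelial markers 3 were higher in hypertrophic cells, and the log2 of their summed level was 9.73 to 10.04 on hypertrophic arrays and 8.70 to 9.25 on proliferative arrays; KDR and EMCN were below background in both groups. Of 7 measured osteoclast markers 2 were higher (10.34 to 11.64 on hypertrophic and 9.71 to 10.07 on proliferative arrays), with CALCR, OCSTAMP and DCSTAMP below background. Of 5 leukocyte markers 1 was higher and 1 lower (8.46 to 10.29 on hypertrophic and 7.69 to 8.13 on proliferative arrays), with PTPRC below background. None of 5 osteoblast markers passed in limma, though their sum was 13.42 to 13.68 on hypertrophic and 12.37 to 13.02 on proliferative arrays. IBSP, also counted among the hypertrophic markers, is in that sum. Of 4 adipocyte markers ADIPOQ and FABP4 were higher and LPL was lower, with sums of 8.36 to 8.84 on hypertrophic and 8.39 to 8.53 on proliferative arrays. None of 2 measured erythroid markers passed (11.54 to 11.92 on hypertrophic and 8.77 to 11.59 on proliferative arrays), nor any of 3 measured muscle markers. With arrays 3 and 4 averaged, 2 endothelial, 1 osteoclast and 1 adipocyte marker were higher and none of these types was lower. Over all genes 7.34% were higher and 5.60% lower, and with the averaging 2.01% and 1.24%. The part of these cells in the rises of TCF7L2 and WNT5B was not tested, and in such pooled cells fewer cells of a type and less RNA per cell cannot be told apart.

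Other genes of the pathway were read from lists chosen by role. Of 78 measured genes of Wnt secretion, reception and relay 9 were higher, 2 were lower and 67 did not pass (11.5% and 2.56%). Over all 13009 genes 7.34% were higher and 5.60% lower. With arrays 3 and 4 averaged, 3 of the 78 were higher and 1 was lower, against 2.01% and 1.24% of all genes. The co-receptors that pair with Frizzled did not pass: LRP5 had a mean log2 level of 7.36 in hypertrophic and 6.72 in proliferative cells (0.65 ± 0.23, adjusted p = 0.126, limma), and LRP6 had 4.98 and 5.28 in the same order (-0.30 ± 0.20, adjusted p = 0.445). WLS, which carries Wnt proteins to the cell surface, was 10.82 in hypertrophic and 10.88 in proliferative cells (-0.06 ± 0.15).

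The largest rise in that list was in CTBP2, a transcriptional corepressor. Its log2 levels were 6.57, 8.00, 8.18 and 8.47 on hypertrophic arrays, against 4.33, 4.77, 3.81 and 3.67 on proliferative arrays, so that it was at least 8.27-fold higher against background (estimate 3.66 ± 0.41, adjusted p = 0.00158, limma). NOTUM, an enzyme that inactivates Wnt proteins, rose by 2.29 ± 0.21 (adjusted p = 6.02e-04), LRP4, a receptor for sclerostin, rose by 1.80 ± 0.29 on its brightest probe set and the kinase CSNK1G1 rose by 1.10 ± 0.18. LRP4 and CSNK1G1 did not pass on these probe sets with arrays 3 and 4 averaged (adjusted p = 0.0629 and 0.0563, limma). CTBP2 and NOTUM did (adjusted p = 0.0280 and 0.00726, limma). None of the 3 other LRP4 probe sets passed (differences of 0.53, 0.14 and -0.14, the last pair below background in both groups). Of the 4 other CSNK1G1 probe sets 2 passed in the same direction (1.29 ± 0.14 and 1.07 ± 0.23) and 1 in the opposite one (-1.31 ± 0.34). With arrays 3 and 4 averaged, the probe set at 1.29 passed (adjusted p = 0.0211, limma). Those at 1.07 and -1.31 did not (adjusted p = 0.160 and 0.199). The calcium-responsive factors NFATC2 and NFATC1 fell by 1.75 ± 0.31 and by 0.83 ± 0.15, the second not passing with arrays 3 and 4 averaged (adjusted p = 0.0563).

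Genes known in other tissues as targets of canonical signalling did not move one way. Of 24 measured, 1 rose, 3 fell and 20 did not pass (4.17% and 12.5%), against 7.34% higher and 5.60% lower of all genes. With arrays 3 and 4 averaged, 1 rose and 2 fell, against 2.01% and 1.24% of all genes. AXIN2, LEF1 and FZD7, also known targets, are among the Wnt genes and were not counted here. MYC had log2 levels of 9.18, 9.63, 10.23 and 10.22 on hypertrophic arrays, against 11.24, 11.35, 11.31 and 11.27 on proliferative arrays. Its difference was -1.48 ± 0.22 (adjusted p = 0.00568, limma, and 0.0346 with arrays 3 and 4 averaged). The cell cycle gene CCND1 fell by 1.505 ± 0.19 (adjusted p = 0.00254, limma, and 0.0250 with arrays 3 and 4 averaged). The transcription factor TWIST1 fell by 0.75 ± 0.20 (adjusted p = 0.0499, limma, and 0.113 with arrays 3 and 4 averaged), while NOTUM, itself a target, rose. MYC and CCND1 are also driven by other growth signals, and the dividing-cell markers fell on the same arrays: CDK1 by 1.31 and KIF2C by 1.81. The part of cell division in these falls was not tested.

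Inhibitors of the pathway, most of them secreted, include several that bind the ligands and receptors above. Of 19 measured, 4 were higher and 2 lower (21.1% and 10.5%), against 7.34% and 5.60% of all genes. With arrays 3 and 4 averaged in limma, 2 inhibitors were higher and 0 lower, against 2.01% and 1.24% of all genes. WIF1, which binds Wnt proteins, rose by 3.89 ± 0.72 (adjusted p = 0.0131, limma, and 0.0851 with arrays 3 and 4 averaged). DKK4, which blocks LRP5 and LRP6, rose by 3.82 ± 0.42 (adjusted p = 0.00147, limma, and 0.0227 with arrays 3 and 4 averaged). DKK3 rose by 1.62 ± 0.33 and the fourth was NOTUM, while SHISA2 fell by 1.05 ± 0.17 and FRZB by 0.94 ± 0.19. SHISA2 is not a secreted protein. DKK3, SHISA2 and FRZB did not pass with arrays 3 and 4 averaged (adjusted p = 0.0612, 0.0726 and 0.13).

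**Figure D5:**
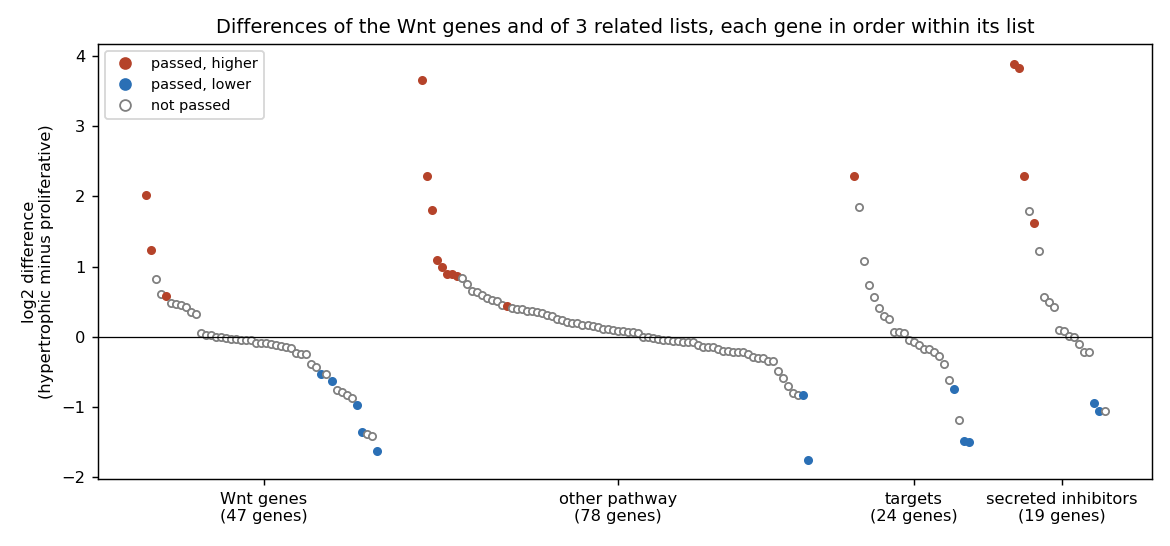
Log2 difference, hypertrophic minus proliferative, of each measured gene among the 47 Wnt genes, 78 other pathway genes, 24 targets and 19 inhibitors. The inhibitors are labelled secreted, though not all of them are. Genes are ordered within each list, and filled points passed over 8 arrays, red higher and blue lower. Most genes of each list did not pass, and the tallest points are WIF1, DKK4 and CTBP2; NOTUM is in 3 lists.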

How the data were processed

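The deposited log2 values cover 38535 probe sets on 8 arrays, and the submitters' processing notes name RMA as the method. That method subtracts background, makes the arrays' distributions equal and summarises probes, which shrinks differences of dim probe sets. The software version is not given in the sources used here. Precision is limited by the number of arrays. The 96 control probe sets were left out. Symbols came from the platform annotation, updated by gene identifier through the RefSeq table of assembly GRCg7b; all 95 Wnt probe sets matched it. Background is the highest of the 8 arrays' 95th percentiles over 744 viral and reporter probe sets.

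The groups were compared in R 4.3.3 by the moderated test of limma 3.58.1, without a block. Deviations from the group means correlated between same-numbered arrays of the groups at r = 0.21, 0.03, 0.25 and -0.0004. Between any arrays of the same pair (1 and 2, or 3 and 4) r was -0.0004 to 0.37. Across the pairs it was negative throughout, from -0.41 to -0.01. Deviations of a group's arrays cancel, so positive values within the pairs bring negative ones across them by construction. The Wnt genes, lists, tests and named genes (every Wnt gene, and the largest changes of each other list) were chosen with earlier results of these data known. A bound leaves out sampling error.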

Additional observations from a re-analysis of the deposited data

Results flagged for a closer look

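In 68 groups of 4 arrays, those of the 34 Wnt genes above background, 3 had 1 array far from the rest by Dixon's test, and chance flags about 1 group in 20. APC read 4.17 on hypertrophic array 2 and 4.52 to 4.54 on the other 3 hypertrophic arrays, all below background. FZD4 read 6.51 on hypertrophic array 1 and 5.97 to 5.997 on the others. PRICKLE2 read 7.88 on hypertrophic array 2 and 8.18 to 8.21 on the others.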

How the results depend on the processing

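TCF7L2, WNT5B and PRICKLE1 passed in the same direction in all 21 settings, with log2 differences of 1.38 to 2.31, 0.88 to 1.58 and -1.78 to -1.55. WNT5B and PRICKLE1 have 1 probe set each, so the settings that choose or average probe sets use the same values for them and add no support. The other 5 genes that passed over 8 arrays (APC, LEF1, PRICKLE2, RSPO2 and RSPO3) kept their direction in every setting that measured them but passed in 8 to 12. Averaging arrays 3 and 4 left 1 Wnt gene lower, 3 other pathway genes higher and 1 lower, and 2 inhibitors higher and 0 lower. Arrays 3 and 4 alone, which may not be independent, gave 7 Wnt genes higher and 13 lower, 22 other pathway genes higher and 11 lower, and 6 targets higher; there WNT11 turned to -0.72 (adjusted p = 0.00388). Arrays 1 and 2 alone gave 3 other pathway genes and 2 targets higher and 0 inhibitors lower. With the array pair (1 and 2, or 3 and 4) as a block, 5 Wnt genes were higher and 12 lower, 5 other pathway genes lower and 2 targets higher. Array weights, which favour arrays 3 and 4, gave 6 and 11 Wnt genes, 19 and 7 other pathway genes, and 5 targets higher. Centring on ribosomal proteins gave 12 Wnt and 4 other pathway genes lower, the mean over probe sets 5 Wnt genes higher and 5 other pathway genes lower, and the most variable probe set 5 other pathway genes lower. With the replicate number as a block, 2 Wnt genes were higher and 4 lower, and 4 other pathway genes were lower. The labels do not say that the numbers pair the arrays. Leaving out 1 array gave 2 to 3 Wnt genes higher and 1 to 4 lower (1 without hypertrophic array 3 or 4 or proliferative array 1, 3 or 4), 6 to 14 other pathway genes higher and 2 to 5 lower (most without hypertrophic array 1), 1 to 3 targets higher and 1 to 2 inhibitors lower. Of all 972 comparisons of a Wnt gene in a setting with the main fit, 50 were changes of sign between differences called in neither fit. The 972 include 166 comparisons of genes that passed in the main fit. The cause of these shifts was not tested. Shares of all genes were counted only over the 8 arrays, with arrays 3 and 4 averaged and with the pair block. Genes below background are not measured.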
